A study of Homo sapiens with 21 samples.

Results

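Stretches of the genome where wild-type RUNX1 sites lie close together were examined for how mutant RUNX1 occupies them. The cells were Jurkat, a long-established line from a human T-cell leukaemia. A region was a merged group of peak summits, each widened by 100 bp on both sides, from the 14 deposited peak lists. Regions with a summit in all 7 lists of TY1-tagged wild-type RUNX1 were kept, and kept regions separated by 12.5 kb or less were stitched together. Stitched units of 5 or more regions were the dense clusters. There were 116 of them among 17058 stitched units (0.68%), and they held 654 of the 21702 kept regions (3.01%), out of 190855 regions in all. The clusters were chosen by summit presence in the TY1 lists, so TY1 values there are description, whereas presence in an HA list was not used in the choice.

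RUNX1 binds DNA through its Runt domain, usually with its partner CBFB, and is a central regulator of blood stem cells and of T-cell development. R232fs, a frameshift, and Y287X, a premature stop, both fall after the Runt domain and remove the end of the protein that carries the transactivation region. G365R replaces a single amino acid in that later part. Transcription factor sites often occur in groups, and joining neighbouring sites over a fixed gap is the usual way to outline such stretches.

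All cells were untreated Jurkat cells. The mutant groups were knock-in single clones carrying R232fs, Y287X or G365R, in which HA marked the mutant product and TY1 marked normal RUNX1 of the same cells. The WT group was a single clone in which either tag marked normal RUNX1. Each mutant genotype had 2 clones, so that 7 HA and 7 TY1 lists came from 7 clones, and for the 7 control samples among the 21 samples no list was analysed here. A clone gave 1 library per antibody, so clones are the replicates, and a difference between genotypes is also a difference between a few single-cell derivatives.

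The HA lists differed in length. They held 77691 and 86433 peaks in R232fs, 51892 and 67594 in Y287X, 30609 and 30563 in G365R and 37472 in WT. The TY1 lists held 40112 and 59140 peaks in R232fs, 49749 and 81561 in Y287X, 57378 and 61793 in G365R and 59452 in WT. HA lists were thus longer than the TY1 list of the same clone in R232fs, shorter in G365R and WT, and mixed in Y287X. The highest −log10 p of a list ran from 2673 to 5706 in the 8 R232fs and Y287X lists and from 513 to 665 in the 6 G365R and WT lists, which the labels do not explain. Truncating genotype, list length and kind of list therefore cannot be told apart. Shares are given both for the lists as deposited and for HA lists cut to their 30563 peaks of highest −log10 p.

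The clusters were mostly small. There were 76 clusters of 5 regions, 21 of 6, 13 of 7, 2 of 8, 1 of 9, 2 of 10 and 1 of 12. Just outside the rule lay 186 stitched units of 4 regions. The clusters spanned 12.5 to 80.5 kb, with a median of 26.4 kb and a total of 3.22 Mb, and neighbouring regions were separated by a median gap of 4.97 kb. They lay on 21 of the 23 chromosomes used, with 17 on chromosome 1, 11 on chromosome 19 and 8 each on chromosomes 2 and 17. Their regions had a median width of 299 bp, beside 304 bp for the 13795 lone regions, those stitched to no other. By the mean percentile of their TY1 fold, cluster regions had a median of 53.2 and lone regions 49.7.

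HA summits of both truncated proteins lay in nearly every region of the clusters. Those of G365R protein, and of wild-type protein under the same HA tag, lay in about 3 in 4. These are shares of regions called in a list. By the rule, TY1-tagged wild-type protein of the WT clone was called in all of them. An HA summit lay in 639 of the 654 regions in the first R232fs clone (97.7%, exact 95% binomial interval 96.2% to 98.7%) and in 625 in the second (95.6%, 93.7% to 97.0%). In Y287X the numbers were 632 (96.6%, 94.95% to 97.9%) and 645 (98.6%, 97.4% to 99.4%). In G365R they were 513 (78.4%, 75.1% to 81.5%) and 492 (75.2%, 71.7% to 78.5%), and in the WT clone 507 (77.5%, 74.1% to 80.7%). All 4 truncating lists lay above both G365R lists and the WT list, and the WT share fell between those of the 2 G365R clones. These intervals cover counting error only, and regions of 1 cluster share their surroundings.

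By genotype the shares were 96.6% ± 1.51 in R232fs, 97.6% ± 1.41 in Y287X and 76.8% ± 2.27 in G365R (SD, n = 2 clones each). The 4 truncating clones exceeded the 2 G365R clones by a mean of 20.3 percentage points. The exact 2-sided permutation p was 0.0667, the smallest that 15 arrangements allow, so this design cannot pass 0.05. With HA lists of equal length the shares were 90.1% and 83.3% in R232fs, 89.0% and 90.8% in Y287X, 78.4% and 75.2% in G365R and 74.5% in WT. The groups still did not overlap, but the difference was 11.5 points (exact permutation p = 0.0667). At lone regions the mean shares were 96.5% in truncating and 69.7% in G365R clones as deposited, and 86.3% and 69.7% at equal length. The same means at clusters were 97.1% and 76.8%, and 88.3% and 76.8%. The gap was thus wider at lone regions and not particular to the clusters.

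**Figure D1:**
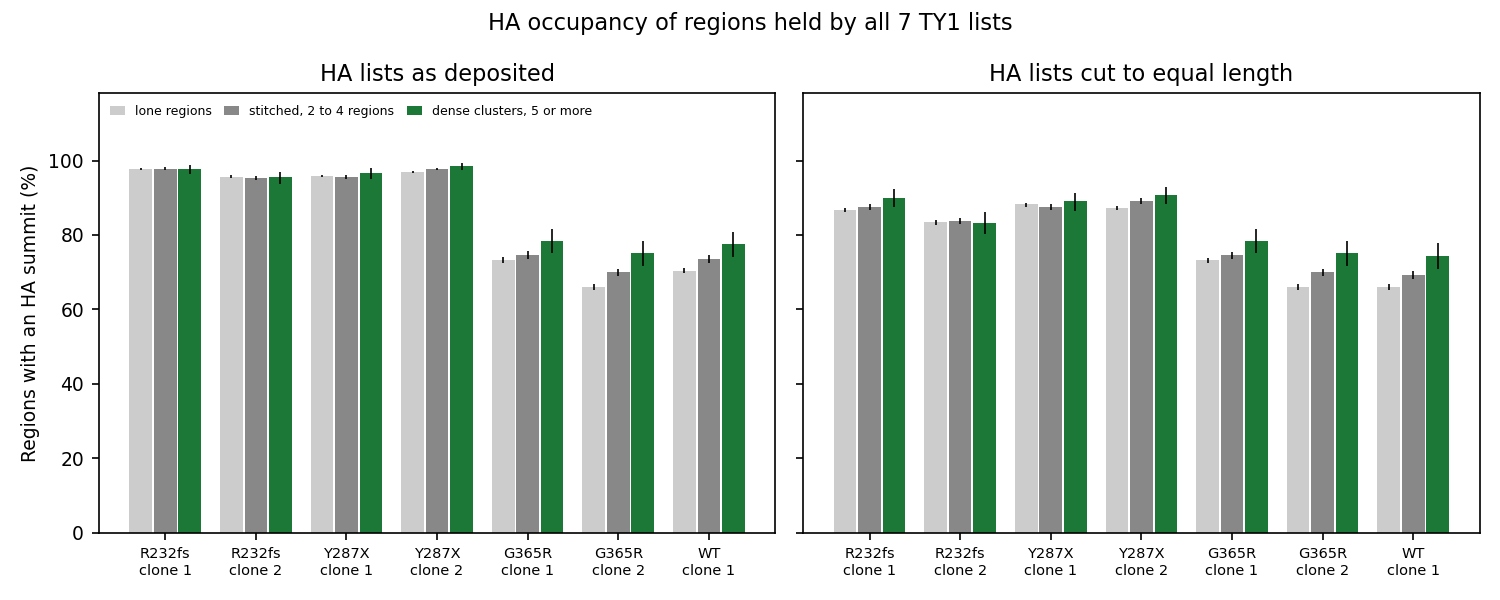
Share of regions with an HA summit (%, vertical axis) in each HA list, for lone regions, stitched units of 2 to 4 regions and dense clusters of 5 or more; bars are shares, lines the exact 95% binomial interval, with lists as deposited on the left and cut to 30563 peaks on the right. At dense clusters the truncating lists stand at 95.6% to 98.6% as deposited and the G365R and WT lists at 75.2% to 78.4%; in the right panel the lowest truncating share is 83.3%.

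Regions of dense clusters had an HA summit more often than lone regions in the G365R and WT clones. HA shares at lone regions were 97.8% and 95.7% in R232fs, 95.9% and 96.9% in Y287X, 73.3% and 66.1% in G365R and 70.4% in WT. Cluster minus lone was therefore -0.054 and -0.107 percentage points in R232fs, 0.775 and 1.77 in Y287X, 5.12 and 9.11 in G365R and 7.08 in WT. The differences of R232fs lay near 0, from shares above 95% in both classes. Over the 7 clones the mean difference was 3.39 points, higher at clusters in 5 of 7, and did not pass the threshold (exact sign permutation p = 0.0625). Every clone was scored on the same regions, so this test measures agreement between clones and not the spread among clusters or regions.

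The call of this difference changed with the processing. With HA lists of equal length, where the truncating lists are no longer near the top, the differences were 3.42 and -0.074 points in R232fs, 0.807 and 3.67 in Y287X, 5.24 and 9.11 in G365R and 8.36 in WT. Their mean was 4.36 points, with an exact sign permutation p of 0.0313 and a higher share at clusters in 6 of 7 clones. Compared within 5 equal bins of the mean TY1 rank, and so at like strength of the sites, it was 1.62 points (exact sign permutation p = 0.0313). Against stitched units of 2 to 4 regions it was 2.16 points (exact sign permutation p = 0.0313). At the edge of the rule the shares in the first G365R clone were 77.0% at units of 4 regions and 79.7% at clusters of 5, and in the WT clone they were 76.3% and 79.2%.

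Most cluster regions were held by every HA list, and those that were not were mostly missing from the G365R and WT lists. All 7 HA lists held 392 of the 654 regions (59.9%), beside 50.6% of lone regions. All 4 truncating lists held 590 (90.2%, beside 89.7% of lone regions) and all 3 G365R and WT lists held 423 (64.7%, beside 55.3%). No region lacked every HA list. At 64 regions (9.79%, beside 13.3% of lone regions) all 4 truncating lists but none of the G365R and WT lists had a summit. The 2 G365R clones both held 451 regions, 103 were in exactly 1 of them and 100 in neither, and 25 of these 100 were in the WT list.

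The opposite pattern occurred at a single region, chr1:172622219-172622607 in hg19, the genome build of the files. Every TY1 list held it, at folds (the authors' peak enrichment over local background) of 7.58 and 4.19 in R232fs, 4.96 and 4.45 in Y287X, 4.59 and 5.96 in G365R and 5.67 in WT. The HA folds were 4.15 and 4.50 in G365R and 5.01 in WT, close to the TY1 folds of those clones. None of the 4 truncating HA lists had a summit or a peak over it, although wild-type protein of the same cells was called there. Their nearest HA summits were 5737 and 5825 bp away in R232fs and 5733 and 5776 bp away in Y287X. It was named because the count was 1, after its values were seen, and 6 of the 13795 lone regions had the same pattern.

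Whole clusters followed the same order. Every region of a cluster had an HA summit in 102 and 91 of the 116 clusters in R232fs, in 96 and 107 in Y287X, in 38 and 35 in G365R and in 38 in WT. Clusters lacking 2 or more regions numbered 0 to 4 in the truncating lists and 40, 51 and 40 in the 2 G365R lists and the WT list. All 4 truncating lists filled 64 clusters completely, both G365R lists filled 22, and all 7 lists filled 10. The mean truncating share was above the mean G365R share in 91 clusters, below it in 10 and equal in 15. By region, all 4 truncating lists held 90.2% of cluster regions and 89.7% of lone regions. Both G365R lists held 69.0% and 59.3%, so this order was not particular to the clusters. At equal length the completely filled clusters were 70 and 51 in R232fs, 64 and 68 in Y287X, 38 and 35 in G365R and 31 in WT.

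**Figure D2:**
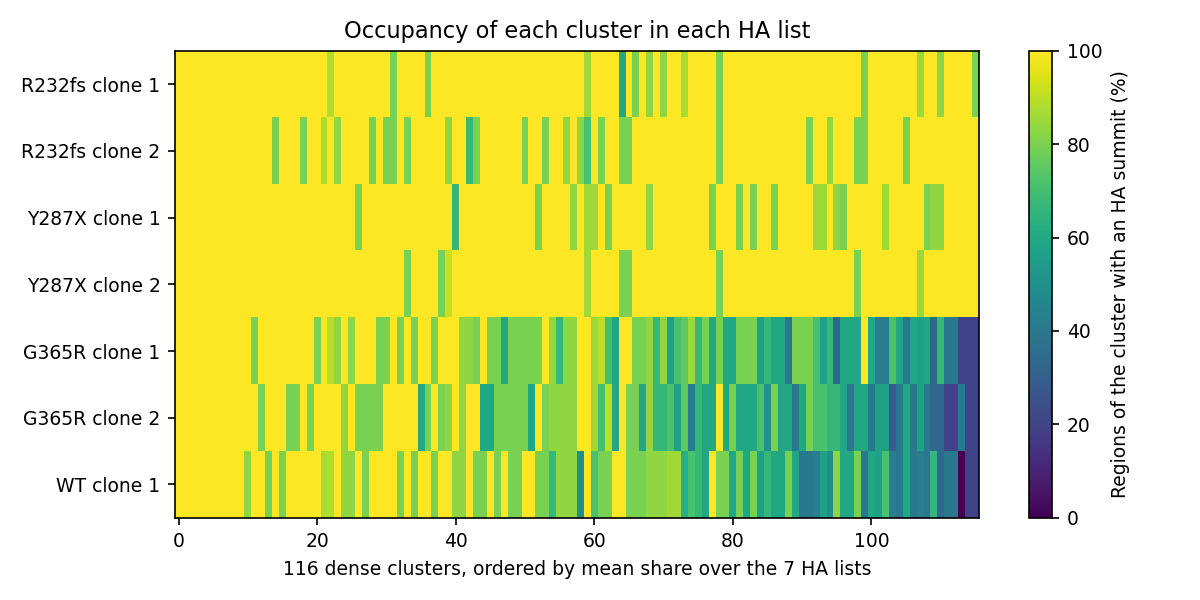
Each column is 1 of the 116 dense clusters, ordered by its mean share over the 7 HA lists, and each row an HA list; colour gives the share of the cluster's regions with an HA summit (0 to 100%). The 4 truncating rows are at 100% in most clusters, with lowest shares of 60% to 80%, while the G365R and WT rows fall together towards the right, to 0% in 1 cluster of the WT list.

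Within a cluster, strong wild-type sites were occupied in every genotype and weak ones were the sites that G365R and WT lists lacked. The strongest region of each cluster by TY1 rank had an HA summit in 115 of 116 clusters in each truncating list, in 113 and 112 in G365R and in 110 in WT. The weakest had one in 111 and 109 clusters in R232fs and 108 and 114 in Y287X, but in 67 and 57 in G365R and 57 in WT. Over all cluster regions in the lowest of 5 equal bins of TY1 rank (88 regions) the HA share was 93.2% to 98.9% in the truncating lists, 44.3% and 28.4% in G365R and 22.7% in WT. In the highest bin (144 regions) it was 95.1% to 100% in the truncating lists and 98.6% to 99.3% in the others. The groups thus met at strong sites and parted at weak ones. Lone regions showed the same order, with 42.4% and 16.9% in G365R and 19.1% in WT for the lowest bin.

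**Figure D3:**
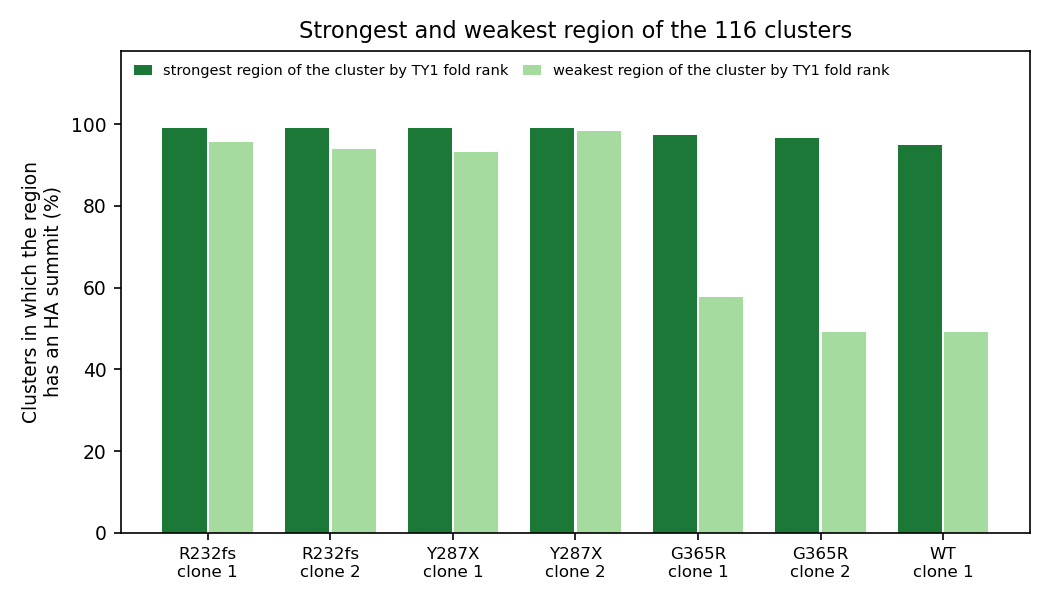
Share of the 116 clusters (%, vertical axis) whose strongest or weakest region by TY1 fold rank had an HA summit, in each HA list. Strongest regions stand at 94.8% to 99.1% in all 7 lists, while weakest regions stand at 93.1% to 98.3% in the truncating lists and at 49.1% to 57.8% in the others.

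Position along a cluster made less difference than strength. The first and last regions of clusters had an HA summit in 98.7% and 95.3% of cases in R232fs, 97.0% and 99.1% in Y287X, 77.6% and 72.8% in G365R and 74.6% in WT. For inner regions the shares were 97.2% and 95.7% in R232fs, 96.4% and 98.3% in Y287X, 78.9% and 76.5% in G365R and 79.1% in WT. Edges were lower than inner regions in both G365R clones and the WT clone, by under 5 points, and the truncating clones were mixed.

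Regions without an HA summit were of 2 kinds. In 3 of the truncating lists most or many of them lay under a peak whose summit was elsewhere: a whole HA peak overlapped 8 of the 15 missing regions in the first R232fs clone, 16 of 29 in the second and 6 of 9 in the second Y287X clone. In the first Y287X clone it did so at 2 of 22. In G365R only 2 of 141 and 1 of 162, and in WT 2 of 147, were under a peak. The nearest summit of the list was a median of 0.929 and 0.672 kb away in R232fs, 2.56 and 0.581 kb in Y287X, 3.42 and 4.73 kb in G365R and 4.12 kb in WT. Counting whole peaks instead of summits raised the shares to 98.5% ± 0.649 in R232fs and 98.2% ± 1.84 in Y287X and to 77.1% ± 2.38 in G365R (SD, n = 2). Lone regions without a summit numbered 309 and 597 in R232fs and 434 in the second Y287X clone. Those without a whole peak numbered 202, 414 and 358. In these 3 lists such overlap was thus less frequent at lone regions, though the cluster counts are small.

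The largest cluster, of 12 regions, lay at chr21:36318781-36399318. An HA summit lay in 12 and 10 of them in R232fs, 12 and 11 in Y287X, 12 and 10 in G365R and 12 in WT, so that the genotypes overlapped completely. Its strongest region, chr21:36346514-36346854, had HA folds of 25.4 and 20.3 in R232fs, 24.5 and 27.4 in Y287X, 26.99 and 22.5 in G365R and 30.4 in WT. TY1 folds there were 31.4 and 17.0, 27.5 and 40.5, 32.9 and 31.8, and 37.2 in the same order. HA fold was below TY1 fold in 6 of the 7 clones, the second R232fs clone being the exception.

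The other 11 regions of this cluster were weaker, and 5 of them lacked an HA summit in 1 list each. The neighbour chr21:36341444-36341707 had HA folds of 9.10 to 14.2 over the 7 lists. Regions chr21:36356039-36356342 and chr21:36359070-36359654 had HA folds of 5.94 to 15.7 and 3.89 to 24.8, both highest in the second Y287X clone. That clone also had the highest TY1 folds at these 2 regions, 20.99 and 22.7. At the last region, chr21:36399092-36399318, HA folds were 5.64 to 10.03 in the truncating lists and 4.49 to 5.00 in the G365R and WT lists, and TY1 folds were split likewise, at 7.94 to 14.3 and 4.49 to 4.83. Here the 2 sets of clones differed in TY1 fold as much as in HA fold. The scale of fold also differed between whole lists. The highest TY1 fold was 209 to 369 in the R232fs and Y287X lists and 61.0 to 78.4 in the G365R and WT lists.

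The remaining regions of the cluster had modest folds in every list. HA folds were 4.04 to 6.12 at chr21:36318781-36319250, which lacked a summit in the second R232fs clone. They were 3.30 to 7.44 at chr21:36328774-36329743 and 2.71 to 8.25 at chr21:36334991-36335674, both without one in the second G365R clone. Region chr21:36371835-36372107, at 4.97 to 9.38, lacked a summit in the second R232fs clone, where a peak with its summit 676 bp away lay over it. Region chr21:36378621-36379404, at 2.46 to 5.55, lacked one in the second Y287X clone, with a summit 245 bp away. Regions chr21:36388398-36389471 and chr21:36394357-36394635 were in all 7 HA lists, at 2.22 to 5.81 and 3.95 to 7.12. No region of this cluster was missing from both clones of a genotype.

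**Figure D4:**
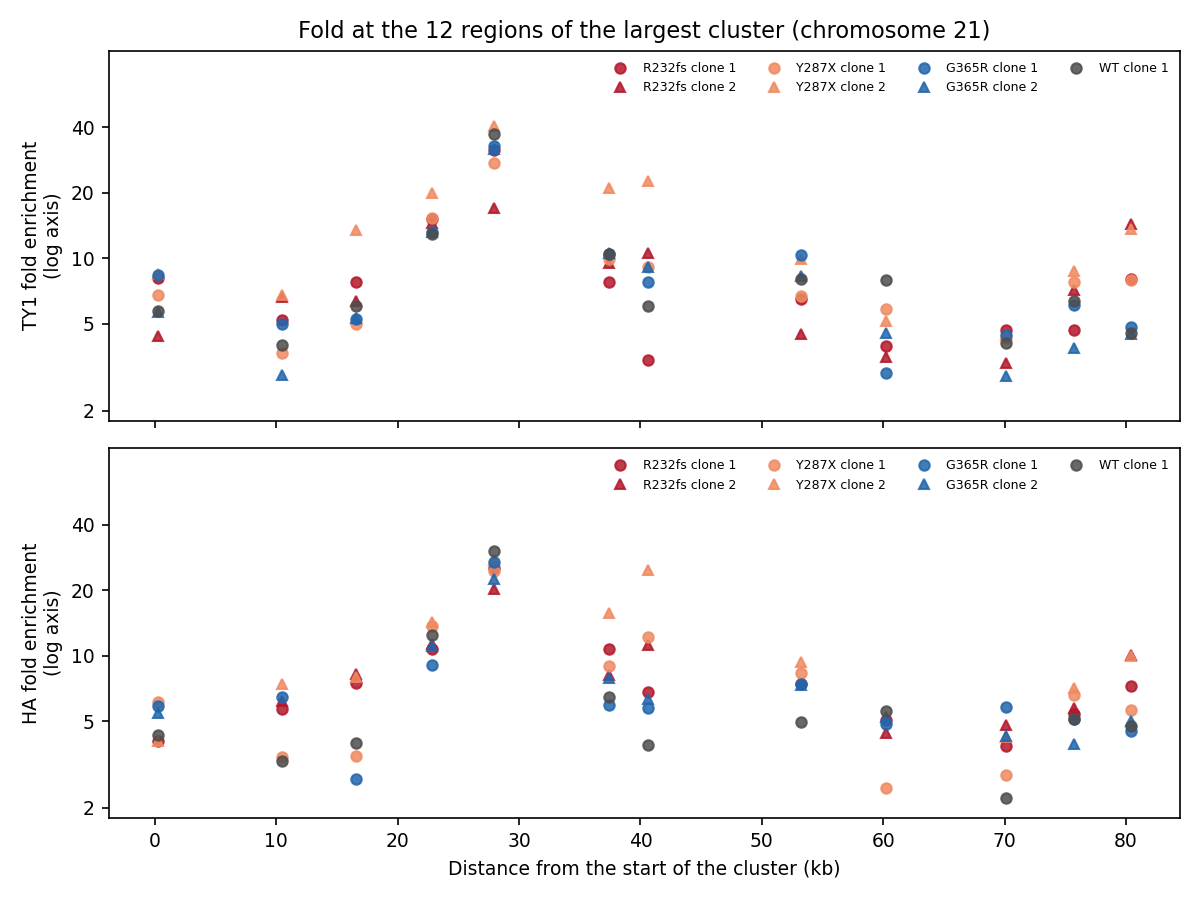
Fold enrichment (log axis) at the 12 regions of the largest cluster against distance from its start (kb), in the 7 TY1 lists above and the 7 HA lists below; each point is 1 list, coloured by genotype, with circles for the first clone and triangles for the second. One region near 28 kb has the highest fold in both panels, at HA folds of 20.3 to 30.4, and the HA points of the 4 genotypes overlap at most regions.

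Some of the next largest clusters differed more between the genotypes. At chr12:11915058-11966016 (10 regions) an HA summit lay in 10, 10, 8, 10, 7, 9 and 8 regions in the R232fs, Y287X, G365R and WT clones in that order. At chr1:165812012-165844920 (10 regions) the numbers were 10, 8, 10, 10, 9, 7 and 8, and at chr1:206931207-206982315 (9 regions) they were 8, 9, 9, 9, 8, 9 and 8. In these 3 clusters the truncating and G365R clones overlapped. At the 8-region cluster chr4:40276787-40319545 they were 8, 7, 8, 8, 8, 8 and 7, and at the other, chr1:94527035-94558129, 7, 8, 8, 8, 6, 6 and 5. Of the longest 7-region clusters, chr14:91853530-91894003 had all 7 regions in each truncating list but 3, 4 and 4 in the G365R and WT lists. The cluster chr19:8333854-8373310 had 7 in each truncating list and 4, 5 and 6 in the others.

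The largest of the 10 clusters complete in all 7 HA lists was chr14:98634155-98676970, with 7 regions. Its strongest region, chr14:98639764-98640021, had HA folds of 21.4 and 24.0 in R232fs, 16.7 and 25.9 in Y287X, 13.6 and 16.0 in G365R and 13.9 in WT. The weakest by TY1 rank, chr14:98634155-98634398, still had a TY1 rank at percentile 62.3, so that all 7 regions were stronger than the median kept region. Others complete in all lists were chr5:169681143-169725031, chr16:75076735-75109411, chr3:45906452-45934913 and chr2:68936564-68962204, each with 5 regions.

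Some clusters that the truncating lists filled were nearly empty in the G365R and WT lists. At chr5:176727300-176747214 each truncating list held all 5 regions and each G365R and WT list held 1, a difference of 80 points between truncating and G365R shares. The region they shared, chr5:176730653-176730890, had HA folds of 4.89 and 5.996 in R232fs, 4.51 and 5.78 in Y287X, 3.38 and 2.26 in G365R and 2.24 in WT. TY1 ranks of its 5 regions ran from percentile 0.399 to 53.9. At chr1:6659804-6685462 the numbers were 4, 5, 5, 5, 1, 1 and 1 of 5 regions (75 points), with TY1 ranks at percentile 1.27 to 29.1. At chr1:12208290-12239439 they were 5, 5, 5, 5, 1, 2 and 0, the only cluster of the 116 with no summit in an HA list. At chr19:7968850-7994546 and chr19:49990601-50015354 each truncating list again held all 5 regions and the others 2, 1 and 2. The cluster chr21:45553474-45579904, of 6 regions, had 5, 6, 5, 6, 4, 2 and 2.

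By HA summits, the G365R lists were fuller than the truncating lists in 10 clusters. The difference was largest at chr7:38384432-38402509, where 3, 4, 5 and 4 of 5 regions were in the R232fs and Y287X lists and all 5 in the G365R and WT lists, a difference of -20 points. The 4 missing summits there were 543 to 703 bp away and their peaks overlapped the regions, so that by whole peaks the cluster was complete. At chr1:172589418-172632147, which holds the region without a truncating HA summit described above, the numbers were 6, 5, 6, 6, 7, 7 and 7 of 7. In its strongest region, chr1:172616261-172616635, HA folds were alike, at 18.3 and 18.7 in R232fs, 20.3 and 21.7 in Y287X, 21.6 and 20.2 in G365R and 26.1 in WT. The next were chr13:30936558-30969877 and chr4:6171584-6185694 (-10 points each) and chr4:109284339-109319736 (-8.33 points). At chr13:30936558-30969877 and chr4:6171584-6185694 peaks again overlapped every region without a truncating summit, so by whole peaks both were complete. In the last cluster, chr4:109304367-109304655 had no peak over it in the first Y287X clone.

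Where a region was occupied, its HA enrichment ranked higher in clusters than at lone regions, in every clone. The mean percentile of the HA fold within its list, over kept regions, was higher at clusters by 6.42 and 4.31 points in R232fs, 4.11 and 7.01 in Y287X, 4.57 and 1.31 in G365R and 1.72 in WT. The mean was 4.21 points (exact sign permutation p = 0.0156, the smallest that 128 arrangements allow, higher in 7 of 7). Within the bins of TY1 rank it was 1.74 points, also higher in 7 of 7 (exact sign permutation p = 0.0156), a smaller difference at like TY1 strength. Both p-values measure agreement between clones scored on the same regions, not the spread among clusters. Median HA folds at clusters and lone regions were 5.68 and 4.91 in the first R232fs clone, but 4.38 and 4.42 in the second G365R clone and 4.06 and 4.05 in WT. The medians of the last 2 lists thus hardly differed, and they cover only the regions each list held.

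The order of regions within a cluster was largely shared between the tags. The region with the highest HA fold was also the one with the highest TY1 fold of the same clone in 88 and 82 of 116 clusters in R232fs, 89 and 96 in Y287X, 97 and 92 in G365R and 93 in WT. In 43 clusters a single region led all 7 TY1 lists, in 39 a single region led all 7 HA lists, and in 34 a single region led all 14. HA and TY1 summits of a clone lay a median of 25 and 16 bp apart at cluster regions in R232fs, 21 and 19 bp in Y287X, 25 and 27 bp in G365R and 22 bp in WT. At lone regions the medians were 17 to 28 bp. Cluster minus lone had a mean of -0.143 bp and did not pass the threshold (exact sign permutation p = 1). Mean distances were larger at clusters by 2.72 bp (exact sign permutation p = 0.0313, larger in 6 of 7 clones). More summit pairs lay over 100 bp apart at clusters in 7 of 7 clones, 7.75% to 10.4% of regions beside 5.74% to 9.47%.

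No cluster as a whole changed its HA rank between truncating and G365R clones past the threshold. Each unit was scored by the mean normal score of the fold ranks of its regions, in units of 1 SD of a list's scores. Regions absent from a list shared 1 tied lowest rank, whose score was lower in lists that lacked fewer kept regions. A fuller list could thus score lower. At chr1:6659804-6685462 the first R232fs clone held 4 of 5 regions and scored -1.35, while the first G365R clone held 1 and scored -0.94. Scores were fitted with limma over all 17058 units, and the fit does not measure how fully a cluster was occupied. Of the 116 clusters, 0 had an adjusted p below 0.05, beside 2.91% of all units. At an unadjusted p below 0.05 there were 12 of the 116 clusters and 4167 of the 17058 units. The median change was -0.06 over the clusters and -0.04 over all units. The smallest p among the clusters was at chr14:61910976-61940073, with a change of 0.82 ± 0.20 (SE, limma adjusted p = 0.0821). It had scores of 1.72, 1.55, 1.53 and 1.61 in the truncating lists, 1.01 and 0.56 in G365R and 1.25 in WT. Ranking −log10 p instead called 19 clusters, beside 30.3% of all units, with 7 higher (16.6% of units) and 12 lower (13.7% of units). With lists of equal length 0 clusters were called, beside 3.43% of units. An unadjusted p below 0.05 was then found at 15 of the 116 clusters, beside 3758 of the 17058 units.

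At 392 cluster regions present in all 14 lists, HA rank was compared with the TY1 rank of the same genotype. The comparison was not taken against HA minus TY1 of the WT clone. Mutant protein and HA tag therefore cannot be told apart in it. Without a clone term the limma fit over 11291 regions called 0 of these regions in each of R232fs, Y287X and G365R, where 0% of all regions were called. At an unadjusted p below 0.05 there were 37, 14 and 24 of the 392, beside 1368, 463 and 590 of all 11291 regions. HA and TY1 lists of a clone deviated together (r = 0.792, 0.702 and 0.503 across regions), and with clone as a replicate block the fit called 79 cluster regions in R232fs (20.2%, beside 21.7% of all regions), 2 in Y287X (0.51%, beside 0.815%) and 12 in G365R (3.06%, beside 4.1%). Ranks of −log10 p without the block called 0, 0 and 1 of them, beside 0.0886%, 0% and 0.416% of all regions. With the block those ranks called 68, 15 and 85, beside 22.2%, 6.24% and 22% of all regions.

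With the block, HA ranked higher than TY1 in R232fs at 46 cluster regions (11.7%, beside 10.4% of all regions) and lower at 33 (8.42%, beside 11.3%). These 79 regions lay in 56 clusters, at most 3 in any one. In G365R, HA ranked higher at 10 (2.55%, beside 2.48%) and lower at 2 (0.51%, beside 1.62%), in 11 clusters. Y287X had 1 in each direction (0.255%, beside 0.266% and 0.549%). The shares higher lay close to those of all regions. Leaving out a clone leaves its genotype with 1, whose spread is then taken from the other genotypes. The R232fs count was then 30 without its first clone (7.65%, beside 9.87% of all regions) and 5 without its second (1.28%, beside 3.31%). The G365R count was 0 without either of its clones, when 0.0177% and 0.00886% of all regions were called. Calls were thus lost over all regions and not only in the clusters. The Y287X count was 0 without any 1 of the Y287X or G365R clones.

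The regions named next were taken from the fit with the block, after its calls were seen, since the fit without it called none. The largest changes in R232fs were both in the cluster chr4:40276787-40319545. At chr4:40297159-40297622 HA folds were 12.5 and 11.9 and TY1 folds 3.60 and 8.26 in R232fs, a change of 1.48 ± 0.26 (SE, limma adjusted p = 0.0101). In the same region G365R had HA folds of 3.20 and 2.58 and TY1 folds of 2.95 and 2.18, a change in rank of 1.47 ± 0.26 (limma adjusted p = 0.0301). In the WT clone HA and TY1 folds of 3.00 and 4.28 stood at nearly the same percentiles, 28.3 and 28.9. In Y287X the 2 clones went opposite ways in fold, with 4.71 and 17.2 for HA and 7.14 and 15.9 for TY1. The edge of the same cluster, chr4:40319074-40319545, had HA folds of 3.87 and 4.87 and TY1 folds of 2.03 and 3.29 in R232fs (change 1.48 ± 0.28, limma adjusted p = 0.0126). By percentile, HA also ranked above TY1 in the WT clone (41.7 against 28.4), where either tag marked normal RUNX1. Each Y287X clone had this order too (22.7 against 9.97, then 22.3 against 17.3). So did each G365R clone (25.3 against 20.7, then 37.5 against 4.11). A higher HA rank at this edge was thus not particular to R232fs.

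Other calls of R232fs were smaller. At chrX:1587318-1587552 HA folds were 13.3 and 8.37 and TY1 folds 5.69 and 6.24 (change 1.13 ± 0.15, limma adjusted p = 0.00647). The G365R and WT clones had the reverse order of folds there, with HA at 3.57 to 3.93 and TY1 at 6.02 to 8.08. The largest falls were at chr16:68113592-68113903 (-1.07 ± 0.25), chr19:1028103-1028404 (-1.05 ± 0.19) and chr21:46351079-46351332 (-1.05 ± 0.20). At the first of these HA folds were 2.36 and 4.01 and TY1 folds 4.03 and 7.74.

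In both R232fs and G365R 4 cluster regions were called (1.02%, beside 159 or 1.41% of all regions), and 2 of them moved in opposite directions, as did 109 of the 159. At chr19:56135622-56135996 R232fs had HA folds of 5.65 and 8.20 beside TY1 folds of 3.65 and 6.92 (change 0.79), while G365R had 1.83 and 2.00 beside 4.03 and 4.17 (change -1.0). The difference of the 2 changes was 1.79 ± 0.24 (limma adjusted p = 0.00758). The WT clone had an HA fold of 1.81 and a TY1 fold of 4.37, so it was low for HA as G365R was. At chr16:84544960-84545251 R232fs had HA folds of 9.37 and 12.2 beside TY1 folds of 6.91 and 8.37 (change 0.79), and G365R 2.67 and 2.50 beside 5.92 and 5.76 (change -0.75). The difference was 1.54 ± 0.24 (limma adjusted p = 0.0101), and the WT clone again had a low HA fold, 2.86 beside 4.98. Over the 392 regions the changes of R232fs and G365R differed at 54 (13.8%, beside 16.5% of all regions), 23 higher (5.87%, beside 8.13% of all regions) and 31 lower (7.91%, beside 8.38%).

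The same direction was called at chr1:9471093-9471350 besides the region on chromosome 4. HA and TY1 folds there were 29.8 and 26.3 in the first R232fs clone and 28.0 and 26.0 in the second. In G365R they were 5.81 and 4.83 in the first clone and 8.88 and 6.06 in the second. The WT clone had 8.28 and 7.73, at percentiles 78.1 and 62.1, so HA ranked higher than TY1 there too. In Y287X the 2 calls were chr4:109284339-109284726, higher by 1.07 ± 0.18, and chr2:25438902-25439140, with a change of -0.92 ± 0.15 (both limma adjusted p = 0.0444). At the first, HA folds were 8.34 and 11.1 and TY1 folds 4.72 and 8.06. For G365R alone, chr17:37025574-37026222 was the other large rise (1.22 ± 0.26, limma adjusted p = 0.0442), at low folds of 2.59 and 1.90 for HA and 2.46 and 2.16 for TY1.

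The spans of the clusters held more than the constant wild-type regions. In their 3.22 Mb there were 1717 regions of any list: 654 in all 7 TY1 lists, 751 in 1 to 6 of them and 312 in none. Of the 312 without TY1, 249 were in a single HA list, 14 in both R232fs lists, 5 in both Y287X lists and 8 in both G365R lists. None were in all 4 truncating lists and 3 were in all 3 G365R and WT lists. HA sites that lacked every TY1 list and repeated in both clones of a mutant genotype thus numbered 27 of 312.

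Per list, the spans held 111 and 90 HA regions without TY1 in R232fs, 29 and 57 in Y287X, 27 and 32 in G365R and 43 in WT. Flanks of the same total length held 95 and 94, 18 and 47, 10 and 17, and 21. The numbers in spans were above those in flanks in 6 of 7 clones, the second R232fs clone being the exception. At equal length the spans held 2, 4, 2 and 3 in the truncating lists, 26 and 32 in G365R and 16 in WT, and the flanks 3, 4, 3 and 1, 10 and 17, and 10. As a share of a list's regions, those without TY1 were 3.37% to 10.6% inside the spans and 5.53% to 28.6% over the genome. The spans were chosen for regions in all 7 TY1 lists, which by itself lowers this share inside them. These shares are therefore description only.

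**Figure D5:**
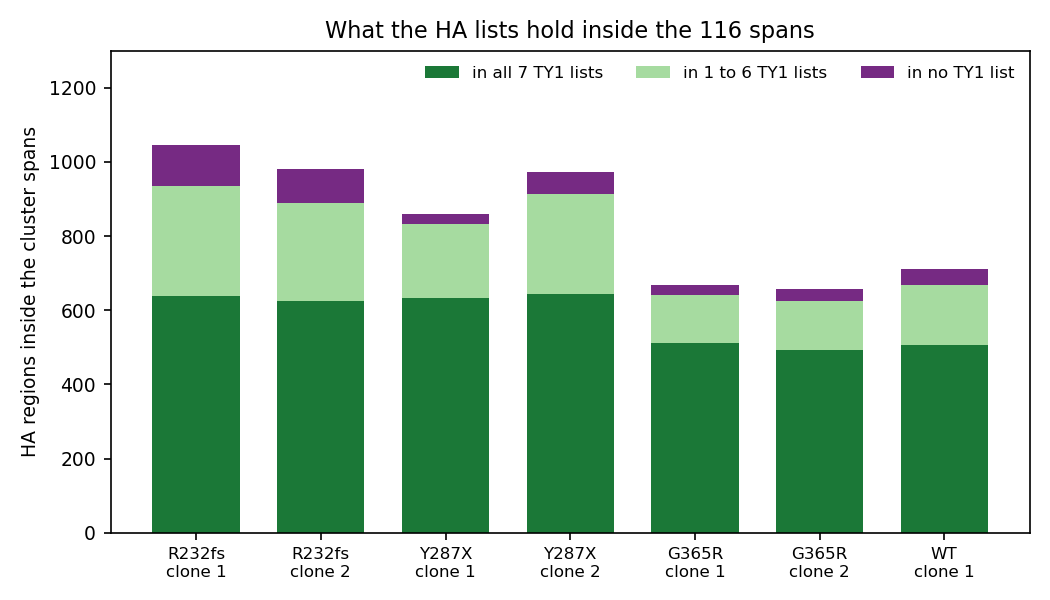
Number of HA regions inside the 116 cluster spans (vertical axis) in each HA list, stacked by how many TY1 lists hold them: all 7, 1 to 6, or none. The R232fs lists reach 1047 and 980 regions and the G365R lists 669 and 657, and regions in no TY1 list number 27 to 111.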

How the data were processed

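The 14 narrowPeak lists were deposited 1 per library, not pooled. CASAVA 1.8, Bowtie2 2.2.9, MACS2 2.2.7.1 and hg19 were named in the submitters' processing notes; how the caller was set and which controls it had is not given in the sources used here. The authors' lists hold, per the file headers, a score, the fold over local background (a linear ratio), −log10 of the p-value and of the q-value, and the summit's offset for every peak. The lowest −log10 q was 1.30 to 1.32. Peaks off chromosomes 1 to 22 and X (1.41% to 2.17% of a list) were left out, and no list of artefact-prone regions was applied. Read depth is unknown from peak lists.

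Presence meant a summit inside a region; windows overlapping by 1 bp or more were merged. Coordinates are counted from 1. Flanks extended each span on both sides by equal lengths, with the span's total. Clone differences were tested by exact sign permutation, and genotypes by exact permutation of clones. Because all clones were scored on the same cluster and lone regions, the sign permutation does not cover the spread among clusters or regions. Fold ranks were turned into normal scores and fitted with limma 3.58.1 (trend, Benjamini-Hochberg adjustment over all units or regions, threshold 0.05) in R 4.3.3. The unit fit had 3 residual degrees of freedom, the region fit 6, or 3 with clone as a block; the spread of the single WT list was taken from the other genotypes. HA and TY1 lists of a number come from the same clone by their clone names, so they are paired. Scripts, tested on simulated data, used Python 3.11.15, numpy 2.4.6, pandas 2.3.3, scipy 1.17.1 and matplotlib 3.10.9.

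The members and lists were chosen with earlier results of these data known. Named clusters were the 10 with most regions, and the 5 with the highest and lowest mean HA share and with the largest difference between truncating and G365R shares in each direction. Named regions were those of the largest cluster and up to 3 called in each direction. An hg19 sequence or annotation was not used here, so clusters are named by position and gene lists were not analysed. Alternatives changed the stitching gap, window, cluster size, presence rule, list length, peak threshold, ranked value and clones.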

Additional observations from a re-analysis of the deposited data

Results flagged for a closer look

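Cluster minus lone HA occupancy went opposite ways in R232fs, at -0.054 and -0.107 percentage points, and in Y287X, at 0.775 and 1.77. The genotype means differed by -1.35 points, and this difference was not tested. The opposite directions did not hold with HA lists of equal length, at 3.42 and -0.074 points in R232fs and 0.807 and 3.67 in Y287X, nor within bins of TY1 rank, where R232fs was at -0.021 and 0.113. In G365R the values were 5.12 and 9.11, and the R232fs mean lay below the G365R mean by -7.20 points, again not tested; the R232fs values lie near 0, at shares above 95%.

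At chr16:84544960-84545251 the change from TY1 to HA rank in R232fs exceeded that in G365R by 1.54, and at chr19:56135622-56135996 by 1.79. Both differences passed the threshold in the limma fit with clone as a term (adjusted p = 0.0101 and 0.00758). In both regions the WT clone lay on the side of G365R.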

How the results depend on the processing

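The number of clusters followed the rule: 15 with the gap halved to 6.25 kb, 424 with it doubled to 25 kb, 74 with windows of 50 bp, 889 for 3 or more regions and 6 for 8 or more, beside 116. The occupancy difference from lone regions passed the threshold (exact sign permutation p of 0.0156 to 0.0313) at 1.53 points with the gap doubled, 2.19 with 50 bp windows, 3.64 with whole peaks, 4.36 at equal length, 3.93 for −log10 q of 5 or more, 1.62 within bins of TY1 rank, 2.16 against units of 2 to 4 regions and 2.48 at equal length within those bins, an alternative chosen after seeing the data. It did not pass at 2.83 points with the gap halved (exact sign permutation p = 0.141), 3.36 with 250 bp windows (0.0781), 2.10 for 3 or more regions (0.0938) or 6.33 for 8 or more (0.172). Nor did it pass without any single clone (2.43 to 3.97 points, exact p of 0.0625 to 0.125). The fit of whole clusters called 19 by ranks of −log10 p (16.4%, beside 30.3% of all units). In paired fits, clone as a replicate block called 79, 2 and 12 regions in R232fs, Y287X and G365R. These were 20.2%, 0.51% and 3.06% of cluster regions, beside 21.7%, 0.815% and 4.1% of all regions. With ranks of −log10 p, added after seeing the data, the block called 68, 15 and 85. Their shares were 17.3%, 3.83% and 21.7%, beside 22.2%, 6.24% and 22% of all regions. Without the block, ranks of −log10 p called 1 in G365R (0.255%, beside 0.416% of all regions). Without each clone in turn the block fit called 5 to 78, 0 to 5 and 0 to 13. The summit distance difference turned to 0.143 bp with 250 bp windows and 2.72 bp with means, and ran from -0.667 to 0.167 bp without each clone in turn. The cause of these changes was not tested. The fold rank difference passed the threshold in the alternatives run for it: ranks of −log10 p, bins of TY1 rank and leaving out each clone in turn. It was not run with other gaps, windows, cluster sizes, presence rules, list lengths or peak thresholds.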
